A study of Mus musculus with 16 samples.

Results

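The genes described here are 10 markers of border-associated macrophages: Pf4, F13a1, Lyve1, Mrc1, Cd163, Cbr2, Ms4a7, Cd209a, Cd209f and Cd209g. They were taken by name from the 53850 genes of the deposited table, where each symbol matched 1 identifier, and their values are given in every one of the 16 libraries. The study asked how microglia of young male and female C57BL/6J mice differ when an inhibitor depletes them. RNA came from cells of the brain cortex sorted as microglia by flow cytometry, and 500 pg of it entered each amplification. The 4 groups held 4 libraries each: females fed PLX3397 for 1 week, females on control chow, males fed PLX3397 for 1 week and males on control chow. PLX3397 blocks the receptor for colony-stimulating factor CSF1. All groups shared the strain and the sort. The labels state neither the sorting gate nor the source animal of each library, so p-values measure the spread between libraries, which may be technical.

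Border-associated macrophages live in the meninges, around blood vessels and in the choroid plexus, where they take up material from blood and cerebrospinal fluid. Like microglia they carry the CSF1 receptor, and they are told apart from microglia by scavenger receptors and lectins such as those listed here. In RNA pooled from many sorted cells, fewer cells of a type and less RNA per cell cannot be told apart.

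Microglia genes far exceeded the macrophage markers in every library. The summed normalised counts of 12 microglia genes (P2ry12, Tmem119, Cx3cr1 and others) ranged between 1082060 and 2897350 per library, while the 10 macrophage markers summed to between 708 and 3995. Estimated depth was 21700000 to 78600000 reads, with 29900000 to 39100000 in males on PLX3397 and 41600000 to 78600000 in male controls. In females it was 21700000 to 71900000 on PLX3397 and 28900000 to 38800000 in controls. Several libraries stood apart from their group. Male control replicate 4 had 516 normalised counts of Xist, a transcript of the inactive X chromosome, against 14.7 to 31.4 in the other male controls. Male PLX3397 replicate 3 had 14419 normalised counts of S100a8, a neutrophil gene, against 2020.5 to 3184 in the other males on PLX3397. Female PLX3397 replicate 3 was the highest of its group for 8 of the 10 markers, and female control replicate 3 the lowest of its group for 8 of 10. Calls that end without these libraries are given with their values without them.

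On PLX3397 the markers that passed the test all fell, in both sexes. The test was limma on log2(normalised count + 1), with p-values adjusted over all genes tested and a threshold of 0.05. In females 5 of the 10 markers fell (Pf4, F13a1, Cd163, Cd209a and Cd209f) and 0 rose by limma, against a background in which 2.67% of 19594 genes tested fell and 5.34% passed in either direction. In males 8 of 10 fell, the same 5 with Lyve1, Mrc1 and Cd209g, and 0 rose, against a background of 7.52% lower and 11.7% in either direction. The groups did not overlap for those 5 in females and those 8 in males, against 5.26% of genes with all PLX3397 libraries below all controls in females and 9.84% in males. In males 4 of the 10 markers were at 0 in every PLX3397 library, as were 0.199% of genes tested. In females 0 of 10 were, against 0.434% of genes. Those 4 markers, Lyve1, Cd209a, Cd209f and Cd209g, passed the filter on low values through the controls, where they are high. The markers were also chosen with earlier results of these data known, so these counts are a description.

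Upstream sequences are shown for 4 of the markers. They are RefSeq's for build GRCm38.p6, read 5′ to 3′ on the strand of the gene. They end at the gene's start or just before the first base of an annotated coding transcript. Pf4 and Cd209a are shown as 2 of the 4 markers that passed the test and hold a motif searched for. Cd209f and Cd209g are shown because they share a long identical run. Pf4 is at chr5:90772185-90772434 on the plus strand, Cd209a at chr8:3748985-3749234 on the minus strand, Cd209f at chr8:4105836-4106014 on the minus strand and Cd209g at chr8:4134486-4134651 on the plus strand. Capitals in Pf4 and Cd209a mark GGAAGT, found as ACTTCC where it lies on the other strand, a core bound by ETS factors such as PU.1, and TGCTGA, found as TCAGCA on the other strand, part of the MAF recognition element. Capitals in Cd209f and Cd209g mark a run of 83 identical bases. Both are cut before the first annotated transcript, and over the whole 250 bases upstream of RefSeq's starts the run is 154 bases.
Pf4: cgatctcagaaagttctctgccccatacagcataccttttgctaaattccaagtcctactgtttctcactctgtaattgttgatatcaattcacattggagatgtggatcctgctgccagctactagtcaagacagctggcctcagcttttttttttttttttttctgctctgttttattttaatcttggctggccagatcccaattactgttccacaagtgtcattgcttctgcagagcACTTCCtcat
Cd209a: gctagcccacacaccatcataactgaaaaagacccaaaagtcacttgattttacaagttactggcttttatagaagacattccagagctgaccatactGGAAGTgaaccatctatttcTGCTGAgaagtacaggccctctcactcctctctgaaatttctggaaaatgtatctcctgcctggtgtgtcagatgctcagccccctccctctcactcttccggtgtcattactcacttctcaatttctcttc
Cd209f: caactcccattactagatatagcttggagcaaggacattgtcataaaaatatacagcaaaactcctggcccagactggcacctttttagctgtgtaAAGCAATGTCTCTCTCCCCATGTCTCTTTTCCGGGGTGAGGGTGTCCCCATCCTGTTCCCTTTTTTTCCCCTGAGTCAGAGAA
Cd209g: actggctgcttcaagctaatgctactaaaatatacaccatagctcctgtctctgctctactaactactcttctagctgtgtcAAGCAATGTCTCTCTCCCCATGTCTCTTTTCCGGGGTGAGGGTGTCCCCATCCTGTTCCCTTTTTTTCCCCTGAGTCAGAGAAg
A promoter was listed for 9 of the 10 markers. The 7 of these that passed the test in at least 1 sex had 8 listed promoters. Of the 8, 4 held GGAAGT on either strand in their 250 bases upstream: Pf4, Mrc1, Cd209a and 1 of F13a1. Cbr2 and Ms4a7, which did not pass, had 3 promoters, and 1 of the 3, of Ms4a7, held it. TGCTGA was found in Cd209a alone among the 7. Of 32851 promoters of the same length, GGAAGT was present in 19.7%, TGCTGA in 16.1% and both in 3.02%, with no overlap between the motifs in Cd209a. The likeness of Cd209f and Cd209g extends into their transcripts, which share an identical run of 416 bases. Of all stretches of 50 bases, 34.9% of those in the Cd209f transcript and 38.7% of those in the Cd209g transcript occur in the other, and Cd209a shares 0 with either. Reads from Cd209f and Cd209g could therefore be split between them or discarded, and how they were counted is not given in the sources used here. Their sum is free of a split between the 2 genes, and it is given beside their own values.

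The receptors that take up cargo are Mrc1, Cd163 and Lyve1. Mrc1 (chromosome 2) encodes the mannose receptor CD206, an endocytic lectin. It had 745, 770.1, 673 and 809 normalised counts in females on PLX3397, against 903, 1257, 610.0 and 1183 in female controls. It had 609.6, 437, 514 and 613 in males on PLX3397, against 885, 809, 836 and 1462 in male controls. In males every PLX3397 library lay below every control, while in females replicate 3 of the controls lay under all PLX3397 libraries. The group means were 749 ± 57.2 in females on PLX3397, 988 ± 295 in female controls, 543 ± 84.6 in males on PLX3397 and 998 ± 311 in male controls (SD, n = 4 each). Mrc1 fell by 0.84 in males on the log2(value + 1) scale (SE 0.228, limma adjusted p = 0.0224). In females the change was -0.35 (SE 0.228, 95% interval -0.83 to 0.14, limma adjusted p = 0.494). The male call ended without control replicate 4 (change -0.65, limma adjusted p = 0.0743), without PLX3397 replicate 2 (limma adjusted p = 0.0749), without PLX3397 replicate 3 (limma adjusted p = 0.056), and with equal library totals (change -0.68, limma adjusted p = 0.0796).

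Cd163 (chromosome 6) encodes the scavenger receptor for haemoglobin bound to haptoglobin. It had 9.65, 7.95, 86.2 and 33.0 normalised counts in females on PLX3397, against 352, 291, 189 and 419.9 in female controls. It had 88.8, 32.7, 109 and 3.16 in males on PLX3397, against 291, 257, 235 and 173 in male controls. The groups did not overlap in either sex, and replicate 3 was the highest PLX3397 library in both. Cd163 fell in both sexes, with a change of -3.71 in females (SE 0.849, limma adjusted p = 0.0145) and -2.78 in males (SE 0.849, limma adjusted p = 0.0433), both on the log2(value + 1) scale. The mean on PLX3397 was 10.9% of the control mean in females and 24.4% in males. The male call was near the threshold: it ended when any 1 of 10 of the 16 libraries was left out, with limma adjusted p up to 0.100, and the change was -1.77 without PLX3397 replicate 4. The female call ended when PLX3397 replicate 1 (limma adjusted p = 0.0535) or PLX3397 replicate 2 (limma adjusted p = 0.055) was left out.

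Lyve1 (chromosome 7) encodes a receptor for hyaluronan that lymphatic endothelium also carries. It was listed at 0, 0, 67.0 and 0 normalised counts in females on PLX3397, against 329, 119, 3.35 and 119 in female controls. It was listed at 0 in all 4 males on PLX3397, against 39.1, 122, 152 and 137 in male controls. Males on PLX3397 and male controls did not overlap, whereas the females overlapped, replicate 3 being high on PLX3397 and low on control chow. Lyve1 fell in males (limma adjusted p = 0.00299), a call that voom weights did not give (adjusted p = 0.131), and no fold is given against a group at 0. In females the change was -4.55 on the log2(value + 1) scale (SE 1.33, limma adjusted p = 0.0584), a size that depends on the pseudocount. Without control replicate 3 it was -5.87 (limma adjusted p = 0.00815). Without PLX3397 replicate 3 the other females on PLX3397 are all at 0, and Lyve1 passed (limma adjusted p = 0.00281), as it did without replicate 3 of both groups (limma adjusted p = 2.11e-05). That pair was chosen after the values were seen, and its libraries are those that run against a fall. The smaller p followed from that choice and adds no support. Of the other markers of lymphatic endothelium, Prox1, a transcription factor, was above 0 in every library, at 191 to 996 normalised counts in females on PLX3397, against 219 to 468 in female controls, and at 165 to 718 in males on PLX3397, against 303 to 516 in male controls, and it did not pass in either sex. Ccl21a was at 0 in every library, Flt4 was above 0 only in female control replicate 1 (40.5) and Pdpn only in female PLX3397 replicate 3 (4.69).

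The secreted and enzymatic markers are Pf4, F13a1 and Cbr2. Pf4 (chromosome 5) encodes the chemokine CXCL4, best known from platelets. It had 10.1, 25.1, 27.9 and 2.15 normalised counts in females on PLX3397, against 293, 188, 164 and 329.8 in female controls. It had 22.7, 7.71, 9.95 and 49.1 in males on PLX3397, against 292, 171, 81.0 and 354 in male controls. No PLX3397 library reached the lowest control in either sex. Pf4 fell in both sexes, with a change of -4.20 in females (SE 0.689, limma adjusted p = 0.00121) and -3.42 in males (SE 0.689, limma adjusted p = 0.00326) on the log2(value + 1) scale. Its mean on PLX3397 was 6.69% of the control mean in females and 9.96% in males. Both calls held in every alternative setting and with any single library left out. Of the platelet genes, Gp1bb was at 0 in every library and Ppbp was above 0 only in male control replicates 1 (10.8) and 4 (1.60). Gp9, on the same platelet list, fell in both sexes, with a change of -2.10 in females (SE 0.244, limma adjusted p = 5.54e-05) and -2.62 in males (SE 0.244, adjusted p = 2.96e-06), and 4 of the 5 platelet genes tested did not pass in either sex. The part of platelet RNA in the Pf4 result was not tested.

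F13a1 (chromosome 13) encodes the catalytic subunit of coagulation factor XIII, which cross-links fibrin. It had 14.0, 57.5, 91.9 and 136 normalised counts in females on PLX3397, against 822, 952, 242 and 1038 in female controls. It had 21.7, 28.9, 98.9 and 5.55 in males on PLX3397, against 869.9, 453, 348 and 443 in male controls. The groups were separate in both sexes, with female control replicate 3 the lowest control. F13a1 fell in both sexes, with a change of -3.53 in females (SE 0.752, limma adjusted p = 0.00913) and -4.27 in males (SE 0.752, limma adjusted p = 0.00111) on the log2(value + 1) scale, and both calls held in every alternative and with any library left out. Monocytes also express F13a1. Of the 4 monocyte genes tested, 0 passed in either sex by limma in the main fit. In males 2 of the 4 rose with a pseudocount of 5, and with array weights 2 rose and 1 fell. Chil3 rose with voom weights in males (adjusted p = 0.0212) and without replicate 3 of both female groups in females (limma adjusted p = 0.0252) and males (limma adjusted p = 0.0425). With 1 library left out, Chil3 rose in some fits of each sex, Ly6c2 rose in some fits of males, and Ccr2 fell in some fits of each sex. The 6 monocyte genes summed to 239 to 613 normalised counts in females on PLX3397 and 399 to 532 in female controls, and to 686 to 6189 in males on PLX3397 and 347 to 675 in male controls. Chil3 was the largest part in each male PLX3397 library, at 407, 767, 4879 and 876, against 240, 0, 35.8 and 303 in male controls. Ly6c2 had 6.75, 181, 833 and 866, against 3.22 to 54.2 in male controls. Ccr2 had 256, 198, 83.9 and 122 in males on PLX3397, against 204 to 339 in male controls. The part of monocyte RNA in the F13a1 values was not tested.

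Cbr2 (chromosome 11) encodes a carbonyl reductase. It had 51.7, 23.1, 214 and 7.86 normalised counts in females on PLX3397, against 198, 299, 176 and 237 in female controls. It had 0, 30.5, 0 and 217 in males on PLX3397, against 229.9, 169.6, 33.6 and 69.9 in male controls. The groups overlapped in both sexes, through replicate 3 in females on PLX3397 and replicate 4 in males on PLX3397. Cbr2 did not pass the test: its change was -2.51 in females (SE 1.39, 95% interval -5.45 to 0.44, limma adjusted p = 0.396) and -3.44 in males (SE 1.39, 95% interval -6.39 to -0.50, limma adjusted p = 0.134). Without male PLX3397 replicate 4 the male change was -4.97 and passed (limma adjusted p = 0.00935), as it did with array weights (adjusted p = 0.0275).

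Ms4a7 (chromosome 19) belongs to the MS4A family of membrane proteins. It had 210.1, 139, 217 and 59.7 normalised counts in females on PLX3397, against 166, 214, 69.0 and 146 in female controls. It had 198, 171, 103 and 248 in males on PLX3397, against 247, 132, 195 and 127 in male controls. High and low libraries were mixed in all 4 groups. Its change was 0.02 in females (SE 0.428, 95% interval -0.89 to 0.93, limma adjusted p = 0.990) and 0.03 in males (SE 0.428, 95% interval -0.88 to 0.94, limma adjusted p = 0.982).

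Cd209a, Cd209f and Cd209g are mouse C-type lectins related to human DC-SIGN, which binds glycans on microbes and on other cells. Their genes lie on chromosome 8 in a cluster in which Cd209f and Cd209g are neighbours. Cd209a was listed at 0, 0, 28.7 and 0 normalised counts in females on PLX3397, against 307, 205, 200.04 and 198 in female controls. It was listed at 0 in all 4 males on PLX3397, against 179, 198, 276 and 105 in male controls. The controls were all above 100, and replicate 3 of the females was the only PLX3397 library above 0. Cd209a fell in females (limma adjusted p = 0.000135) and in males (limma adjusted p = 1.78e-05). In females the change was -6.59 on the log2(value + 1) scale (SE 0.835), and it ranged between -7.59 with voom weights and -4.83 with a pseudocount of 5 over the alternatives that keep the female libraries, a size on which the pseudocount bears, with 3 of the 4 values at 0. Dendritic cells express Cd209a as well. Of 5 dendritic-cell genes tested 0 passed in females and 1 in males, Flt3, a growth factor receptor, which rose by 1.08 (SE 0.332, limma adjusted p = 0.0443). The Flt3 call ended with no filter (limma adjusted p = 0.0735), after quantile normalisation (0.0684), without male control replicate 4 and male PLX3397 replicate 3 (0.177), and when any 1 of 9 of the 16 libraries was left out, 6 of them male (up to 0.139, without male PLX3397 replicate 3). Cd7 was at 0 in every library. Their part in the Cd209a result was not tested.

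Cd209f was listed at 0, 0, 115 and 0 normalised counts in females on PLX3397, against 293, 373, 234 and 285 in female controls. It was listed at 0 in all 4 males on PLX3397, against 331, 116, 165 and 275 in male controls. Again female PLX3397 replicate 3 alone was above 0, at 38.7% of the female control mean. Cd209f fell in females (change -6.48, likewise set in part by the pseudocount, SE 1.11, limma adjusted p = 0.00172) and in males (limma adjusted p = 0.000203). Both calls of Cd209a and of Cd209f held in every alternative and with any library left out.

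Cd209g was listed at 0, 0, 73.3 and 33.0 normalised counts in females on PLX3397, against 80.6, 76.0, 47.3 and 39.6 in female controls. It was listed at 0 in all 4 males on PLX3397, against 146, 47.3, 116 and 60.7 in male controls. The female groups overlapped through replicate 3 on PLX3397, and the male groups were separate. Cd209g fell in males (limma adjusted p = 0.000893). In females the change was -3.06 (SE 1.10, limma adjusted p = 0.139), and without PLX3397 replicate 3 it was -4.19 (limma adjusted p = 0.0172). Cd209f and Cd209g together had 0, 0, 188 and 33.0 normalised counts in females on PLX3397, against 374, 449, 281 and 324 in female controls, and 0 in all 4 males on PLX3397, against 477, 163, 281 and 335 in male controls. Their sum was lower in every PLX3397 library than in any control of the same sex.

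**Figure D1:**
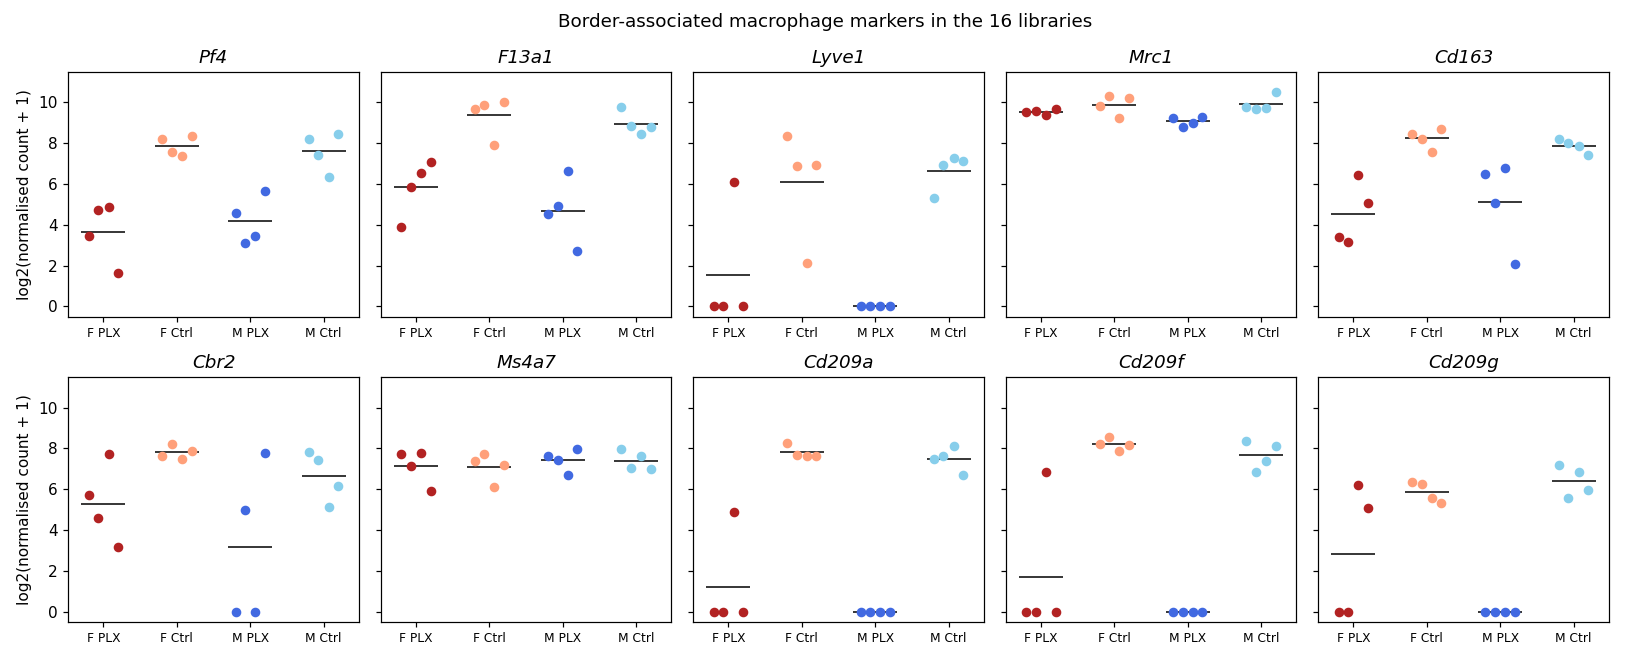
Normalised counts of the 10 markers in the 16 libraries, as log2(normalised count + 1). Each point is a library and each line a group mean, with females on PLX3397, female controls, males on PLX3397 and male controls from left to right. Cd209a, Cd209f, Cd209g and Lyve1 sit at 0 in all 4 males on PLX3397, and Ms4a7 overlaps in all groups.

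The median change over the 10 markers was -3.62 in females and -3.86 in males on the log2(value + 1) scale, or -3.10 in males without the 4 at 0. Over all genes tested it was -0.00 in females and 0.02 in males. All 10 markers passed the filter on low values. Lyve1, Cd209a, Cd209f and Cd209g reached 10 normalised counts in at most 2 PLX3397 libraries, fewer than the 4 that the filter asks, so they passed it through the controls, and the counts of markers above are a description. In these units 1 read was worth 0.843 to 1.17 normalised counts in males on PLX3397 and 0.516 to 1.00 in male controls, and the controls were the deeper libraries. The number of markers that passed stayed between 4 and 7 in females and between 6 and 8 in males with any single library left out. Without male control replicate 4 and male PLX3397 replicate 3 it was 7 in males, with Mrc1 lost (change -0.62, limma adjusted p = 0.144). Without female PLX3397 replicate 3 and female control replicate 3 it was 7 in females, with Lyve1 and Cd209g added. This pair was chosen after the data were seen, so the added calls are a description.

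**Figure D2:**
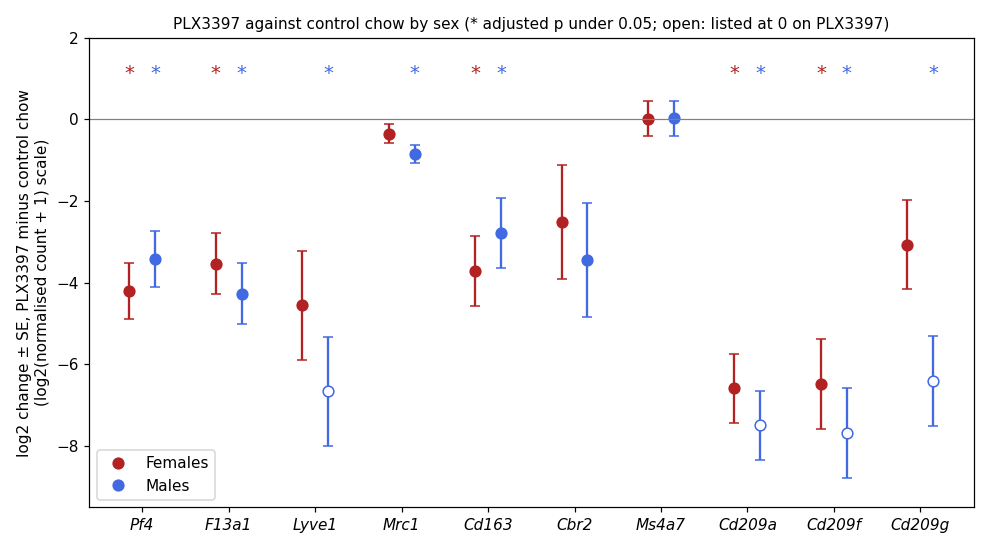
Change of each marker on PLX3397 relative to control chow in females and males (log2 scale, points with SE bars, 4 libraries per group). Stars mark adjusted p under 0.05 by limma, and open points mark groups listed at 0, where the plotted size depends on the pseudocount. Pf4, F13a1, Cd163, Cd209a and Cd209f carry a star in both sexes.

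The difference between the responses of females and males was tested in its own right. By limma 0 of 10 markers passed and 0 of 19594 genes did (background 0%), and voom also gave 0. At an unadjusted p under 0.05 there were 2010 genes and 1 marker, Cd209g, with a difference of 3.34 (SE 1.55, unadjusted p = 0.0472, limma adjusted p = 0.478). That difference rests on a male group at 0. For Pf4 the difference was -0.79 (SE 0.975, 95% interval -2.85 to 1.28), for F13a1 it was 0.74 (SE 1.06, interval -1.51 to 2.99), and for Cd163 it was -0.93 (SE 1.20, interval -3.47 to 1.62). For Mrc1 it was 0.50 (SE 0.322, interval -0.19 to 1.18, limma adjusted p = 0.629). For Cbr2 it was 0.94 (SE 1.97, interval -3.23 to 5.10) and for Ms4a7 it was -0.01 (SE 0.606, interval -1.29 to 1.27). For Lyve1, Cd209a and Cd209f it also rests on males at 0, with limma adjusted p of 0.755, 0.842 and 0.842.

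Females and males were also compared on each chow. On control chow 0 markers passed by limma, 0 at an unadjusted p under 0.05 and 0 by voom, against a background of 0.0663%. There the difference for Mrc1 was -0.02 (SE 0.228, 95% interval -0.51 to 0.46). On PLX3397 0 markers passed, against 5.43% of genes, and voom gave 0. At an unadjusted p under 0.05 there was 1, Cd209g (unadjusted p = 0.0204, limma adjusted p = 0.146). Mrc1 was higher in every female PLX3397 library than in any male PLX3397 library, a separation seen in 6.76% of genes, and its difference of 0.47 did not pass (SE 0.228, limma adjusted p = 0.236).

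Between genes, levels were compared as normalised counts per kilobase of exon. The length joins the exons of all annotated transcripts of a gene, 3610 bases for Cd209g and 1988 for Cd209f. The order, with the place of Cd209g, depends on this length. In female controls the order was Pf4 (338 ± 112), Cbr2 (171 ± 40.6), Mrc1 (155 ± 46.2), Cd209f (149 ± 29.0), Cd209a (144 ± 33.4), F13a1 (113 ± 53.3), Cd163 (57.3 ± 18.0), Lyve1 (48.9 ± 46.5), Ms4a7 (33.4 ± 13.6) and Cd209g (16.9 ± 5.67) (SD, n = 4). Each neighbour from Cbr2 to F13a1 differed from the next by less than the larger SD of the pair, as did those from Cd163 to Ms4a7. In male controls Pf4 was also first, at 311 ± 169, followed by Mrc1 at 157 ± 48.8 (SD, n = 4). On PLX3397 the order changed. Mrc1 led with 118 ± 8.97 per kilobase in females and 85.3 ± 13.3 in males (SD, n = 4). Cbr2 followed with 55.9 ± 71.5 in females and 46.7 ± 78.8 in males, an SD above the mean in both. Ms4a7 came next, with 35.1 ± 16.5 in females and 40.5 ± 13.6 in males. Pf4 had 22.6 ± 17.0 in females on PLX3397 and 31.0 ± 26.3 in males on PLX3397.

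Of the other CD209 genes 4 had an identifier, and their values differed from one gene to the next. Cd209b had 0 normalised counts in all 4 females on PLX3397, against 47.7, 20.2, 102 and 12.2 in female controls, and 41.1, 0, 0 and 0 in males on PLX3397, against 27.4, 60.3, 34.9 and 116 in male controls. It fell in females (limma adjusted p = 0.00677) and in males (change -4.35, SE 1.05, limma adjusted p = 0.0111). Voom gave neither call (adjusted p = 0.0813 in females and 0.0532 in males). The male call ended without male control replicate 4 and PLX3397 replicate 3 (adjusted p = 0.103), and the female call without replicate 3 of both groups (adjusted p = 0.0512). Cd209c had 175, 195, 143 and 223 in females on PLX3397, against 142, 208, 163 and 141 in female controls, and 318, 328, 282 and 247 in males on PLX3397, against 161, 219, 215 and 266 in male controls. Its groups overlapped in both sexes, with changes of 0.17 (SE 0.211, limma adjusted p = 0.770) in females and 0.46 (SE 0.211, limma adjusted p = 0.194) in males. Cd209d was above 0 only in female control replicate 4 (8.99) and male control replicate 1 (16.7), and Cd209e only in female control replicate 2 (10.9).

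A further list of 22 genes reported in border-associated macrophages, all of them tested, held some genes that microglia express as well. In females 7 fell, 0 rose and 15 did not pass, with a median change of -0.74, or -0.63 without Timd4, listed at 0. The female count of falls was 4 without female control replicate 1. In males 8 fell, 1 rose and 13 did not pass, with a median of -0.96, or -0.91 without Timd4. Cd38, an enzyme that consumes NAD, fell by 1.93 in females (SE 0.392, limma adjusted p = 0.00637, and 0.058 in a fit to the female groups alone). Ccr1, a chemokine receptor, had a change of -1.57 in females (SE 0.400, limma adjusted p = 0.0278, up to 0.086 with 1 library left out, ending with any 1 of PLX3397 replicates 1 and 2 and the 4 controls) and -2.46 in males (SE 0.400, limma adjusted p = 0.000579). Ms4a6b, in the same family as Ms4a7, had a change of -0.86 in females (SE 0.159, limma adjusted p = 0.0034) and -1.20 in males (SE 0.159, limma adjusted p = 9.28e-05). Wfdc17, a secreted protein, had 164, 105, 234 and 277 normalised counts in males on PLX3397, against 33.5, 30.9, 0 and 18.5 in male controls, and rose by 3.92 (SE 0.922, limma adjusted p = 0.00962). The count of falls in males was 6 with equal library totals and 4 without male control replicate 4 and male PLX3397 replicate 3.

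Markers of other cell types moved beside these genes. Of the 12 microglia genes 10 fell in females and 12 in males. Of 10 neutrophil genes 5 rose in females and 8 in males. With voom weights 0 of 10 passed in females and 8 in males, and without male control replicate 4 and male PLX3397 replicate 3 it was 6 of 9 in males. They summed to 980 to 3277 normalised counts in females on PLX3397, against 203 to 271 in female controls, and to 10144 to 71359 in males on PLX3397, against 496 to 3389 in male controls. In female controls Cxcr2 made up nearly all of the sum, at 197, 266, 250 and 228, against 173 to 211 in females on PLX3397. There were 6 of the 10 neutrophil genes at 0 in all 4 female controls. Of the MHC class II genes, which a subset of border-associated macrophages expresses strongly, Cd74 rose by 1.41 in females (SE 0.281, limma adjusted p = 0.00571) and by 1.85 in males (SE 0.281, limma adjusted p = 0.00031), and H2-Eb1 fell by 1.90 in males (SE 0.516, limma adjusted p = 0.0229). The H2-Eb1 call ended without male control replicate 4 and male PLX3397 replicate 3 (limma adjusted p = 0.0618) and without any 1 of male PLX3397 replicates 1 and 4 and male control replicates 1 and 4 (limma adjusted p up to 0.0775). Female PLX3397 replicate 2 stood apart for these genes, with 3667 normalised counts of H2-Aa, against 338 to 461 in the other females on PLX3397. Without it the female change of Cd74 was 1.13 (limma adjusted p = 0.0168), and H2-Eb1 passed in females, with a change of -1.90 (limma adjusted p = 0.0058). With all libraries, the other 4 of these 5 genes in females and the other 3 in males did not pass. In female PLX3397 replicate 3, the library that kept Lyve1, Cd209a and Cd209f, Ttr of the choroid plexus had 168 normalised counts, against 0, 0 and 119 in the other females on PLX3397, and Cldn5 of endothelium had 39.9 and was at 0 in all other libraries. Other genes of the same lists went either way there. Kl of the choroid plexus had 43.6, against 61.7 to 66.4 in the other females on PLX3397. Flt1 of endothelium was at 0, against 3.94 to 118, while Pecam1 of the same list was highest there, at 767, against 503 to 610. Cdh5 of endothelium had 16.6, against 14.7 to 36.3. Folr1 of the choroid plexus had 29.4, against 0 to 59.2, and Kcnj13 had 0, against 0 to 1.56. Of the remaining lists, Pecam1 of the endothelium list, 1 of 3 genes tested, had a change of -1.17 in females (limma adjusted p = 0.000675) and -1.53 in males (limma adjusted p = 2.78e-05). The others tested, Cdh5 and Flt1, did not pass in either sex. Ly6c1 of that list was above 0 only in male PLX3397 replicate 4 (2.15), and Slco1a4 only in male control replicate 3 (1.03). Pdgfrb of mural cells, 1 of 2 tested, passed in males with a change of -3.80 (SE 1.13, limma adjusted p = 0.0389). That call ended with voom weights (adjusted p = 0.093), with a pseudocount of 5 (limma adjusted p = 0.0502), without male control replicate 4 and male PLX3397 replicate 3 (limma adjusted p = 0.143), and without any 1 of PLX3397 replicates 1, 3 and 4 and control replicates 2, 3 and 4 of the males (limma adjusted p up to 0.125). In all, 0 of 1 lymphatic, 0 of 1 fibroblast and 0 of 2 choroid plexus genes passed in either sex. Col3a1 of fibroblasts was at 0 in every library. The part of these genes in the marker values was not tested.

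**Figure D3:**
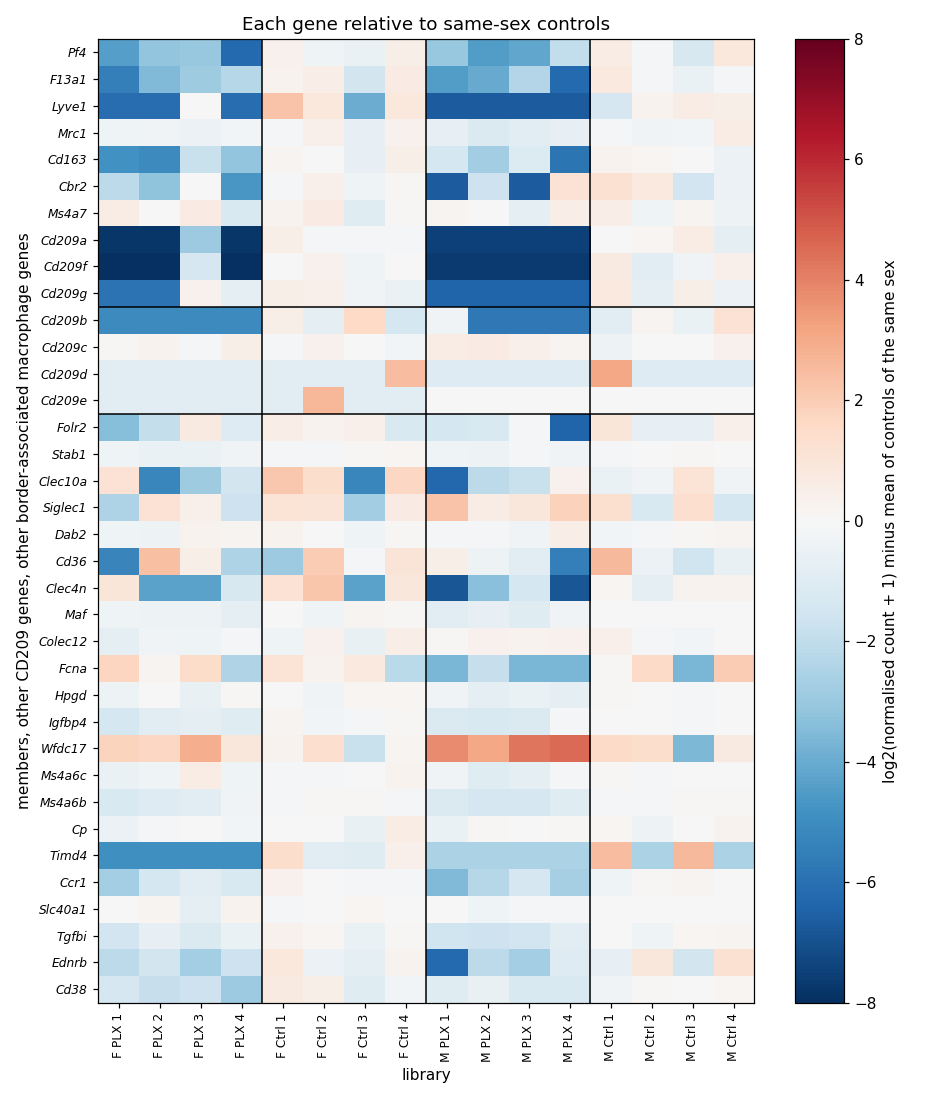
Values of the 10 markers (top), the other CD209 genes (middle) and 22 further border-associated macrophage genes (bottom) in each library, as log2(normalised count + 1) minus the mean of controls of the same sex. Blue is lower and red higher than controls, and the columns run females on PLX3397, female controls, males on PLX3397 and male controls. Female PLX3397 replicate 3 is the library of its group nearest to controls for Lyve1, Cd209a and Cd209f.

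The number of markers above 0 was below 10 in each library on PLX3397 except female replicate 3. It was 6, 6, 10 and 7 of 10 in females on PLX3397, against 10 in each female control, and 5, 6, 5 and 6 in males on PLX3397, against 10 in each male control. The 10 markers summed to 1040, 1023, 1593 and 1080 normalised counts in females on PLX3397, against 3744, 3973, 1933 and 3995 in female controls. They summed to 941, 708, 835 and 1137 in males on PLX3397, against 3509, 2474, 2439 and 3204 in male controls. Mrc1 was the largest contributor in each library on PLX3397. No library on PLX3397 reached the lowest control of its sex.

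Across the 16 libraries most pairs of markers varied together. Over the 45 pairs the median Pearson's r of log2(value + 1) was 0.66, and over deviations from group means it was 0.33, with 32 of 45 pairs above 0. The points share libraries that differ in depth, and no p is given. Cd209a and Cd209f were the closest pair, with r of 0.98 over all libraries and 0.92 within groups, and Cd209g had 0.67 and 0.68 with them within groups. Female PLX3397 replicate 3 is the only library in which both Cd209a and Cd209f departed from 0 on PLX3397. F13a1 and Cd163 had 0.75 within groups, and Lyve1 had 0.75 with Cd209a and 0.72 with Cd209f. On PLX3397 Lyve1 too was above 0 in female replicate 3 alone. Cd163 and Cbr2 had -0.51.

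**Figure D4:**
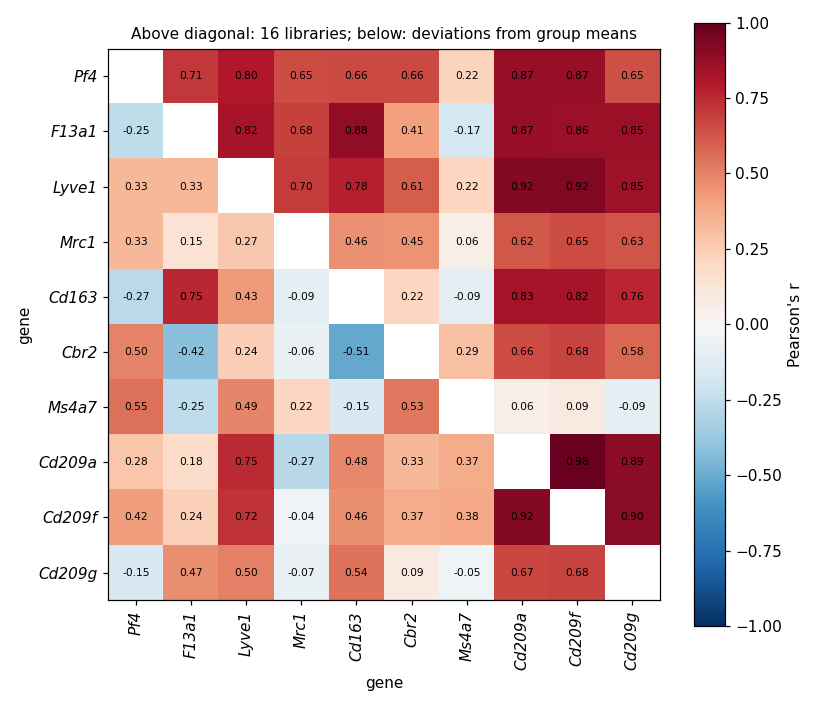
Pearson's r between the 10 markers, over the 16 libraries above the diagonal and over deviations from group means below it. Cd209a and Cd209f reach 0.98 and 0.92, and Ms4a7 lies near 0 with the CD209 genes over all libraries.

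The genes outside the list whose pattern over the 16 libraries was most like the mean of the markers were Kcnip3 (r = 0.97), a calcium-binding protein that acts on potassium channels, Gm49010 (0.96), Elmo1 (0.96), an engulfment adaptor, Arhgap5 (0.96), Trpm2 (0.96), a cation channel, and Etv5 (0.96), an ETS transcription factor. Kcnip3 fell in both sexes, with a change of -2.48 in females (limma adjusted p = 0.00103) and -3.13 in males (adjusted p = 6.25e-05). Within groups the closest were Msto1 (0.93), Dhx29 (0.87), Numb (0.87) and Cbln3 (0.87), and of the 10 named by each measure only Gm49010 was on both lists.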

How the data were processed

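The 16 libraries of 4 groups were taken from 1 deposited table of normalised counts, a signal per gene that the authors scaled by library, per the file's name and its values. Per the submitters' processing notes, which give neither role nor order, the tools were STAR 2.7.9a, featureCounts 2.0.1, Subread, Salmon 1.5.2 and bcl2fastq 2.19.1, on GRCm39. Neither the scaling formula nor the release of the gene annotation is given in the sources used here. Per the labels' protocols, 150 pg of amplified cDNA went into each sequencing library.

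In each library the commonest low value, 0.516 to 1.92, was taken as the worth of 1 read and gave the estimated depth. Only 13.9 to 32.4% of low values lay within 0.02 of a whole multiple of it, so reads were not recovered and no count model was used. No interval for counting error is given. Precision is shown as SE, with a median of 0.292 over genes for a comparison of 2 groups.

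Symbols matched 51029 of 53850 identifiers through an Ensembl-based table. The test took the 19594 genes that reached 10 in 4 or more libraries, as log2(value + 1). All 16 libraries entered the fit, made with limma 3.58.1 (R 4.3.3, intensity trend) and a mean for each group, and tests were two-sided. A gene passed at a Benjamini-Hochberg adjusted p below 0.05. There were 5 comparisons: the chows within each sex, the difference between those responses, and the sexes on each chow. The procedure was tested on simulated data. Intervals of changes are 95% intervals from the same fit.

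The rule for naming took all 10 markers, up to 6 called genes of each other list by size of change together with genes at 0 in every library, and the 10 genes most like the markers; the text names part of these. The markers and lists were chosen with earlier results of these data known. Genes whose values bear on a library that stood apart, and Cd209d, Cd209e, Flt4, Pdpn, Ppbp, Cldn5, Ttr, Prox1, Kl, Flt1, Cdh5, Ly6c1, Slco1a4, Folr1, Kcnj13, H2-Aa, Chil3, Ccr2, Ly6c2, Cxcr2, Xist and S100a8, are named beyond that rule after their values were seen.

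Promoters came from RefSeq (GRCm38.p6) and were matched by symbol, and transcripts and exon lengths came from GENCODE M21. Levels per kilobase divide the normalised count by the summed exon length over all annotated transcripts of the gene, with overlaps counted once. A comparison of protein sequences had been planned, and the transcripts were compared instead. Alternatives were each library left out, a replicate block, voom weights on values divided by the worth of 1 read, array weights, fits of only the groups compared, 3 other scalings (equal library totals, quantile, upper quartile), 2 other filters, and pseudocounts of 0.5 and 5. Male control replicate 4 and male PLX3397 replicate 3 were also left out together, and so, after seeing the data, were female PLX3397 replicate 3 and female control replicate 3. Python 3.11.15 and matplotlib 3.10.9 drew the figures.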

Additional observations from a re-analysis of the deposited data

Results flagged for a closer look

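In 6 of 36 groups with a range, 1 library lay farther from the other 3 than Dixon's 95% critical value allows, and chance gives this in about 1 in 20 groups of normally distributed values. Female PLX3397 replicate 3 accounts for 3 of them: it had 67.0 normalised counts of Lyve1, 28.7 of Cd209a and 115 of Cd209f, each with the other 3 females on PLX3397 at 0. In such a group any value above 0 in 1 library exceeds the critical value, so the chance rate does not apply to these 3. Male PLX3397 replicate 4 had 217 normalised counts of Cbr2, against 30.5 in the next library of its group. Female control replicate 1 had 307 normalised counts of Cd209a, against 205 in the next. Male control replicate 4 had 1462 normalised counts of Mrc1, against 885 in the next. The causes were not tested.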

How the results depend on the processing

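No marker changed direction with its call in any of the 13 alternatives or 16 fits that left out a library. Markers that passed numbered 5 to 7 in females and 6 to 9 in males over the alternatives, and 0 in the other 3 comparisons. In females Lyve1 passed with a pseudocount of 0.5 (limma adjusted p = 0.0489), a filter on a mean of 50 (0.0477), quantile normalisation (0.0389) and array weights (0.0272). In males Cd163 did not pass with no filter (limma adjusted p = 0.0765), equal library totals (0.0588) or a fit to the groups compared alone (0.0766). The filter on a mean of 50 left out Cd209g, so it gave no value there. Over all genes, the male count of 2289 was 1517 without male control replicate 4 and male PLX3397 replicate 3; leaving out 1 library gave 1727 to 2312 in males and 775 to 1145 in females. The 815 higher and 1474 lower genes in males became 1348 higher and 917 lower with equal library totals, 1040 and 1189 after quantile normalisation, and 1032 and 1224 after upper-quartile scaling; equal totals moved the median of all genes by 0.16. For the difference between responses the count of 0 was 1 with a pseudocount of 5, 2 without male control replicate 4 and male PLX3397 replicate 3, and 0 to 6 with 1 library left out. For females minus males on control chow the count of 13 was 8 with voom and 11 to 20 with 1 library left out. On PLX3397 the count of 1064 was 669 with no filter, 570 with equal library totals, 465 after quantile normalisation, 606 after upper-quartile scaling and 44 in a fit to those groups alone. It was 339 without male control replicate 4 and male PLX3397 replicate 3, 419 without replicate 3 of both female groups, and 324 to 1232 with 1 library left out. Its 838 higher and 226 lower genes became 195 and 375 with equal library totals, 244 and 221 after quantile normalisation, and 265 and 341 after upper-quartile scaling, and none of these were markers. The causes were not tested. The replicate numbers do not pair the samples: deviations of same-numbered libraries had r of -0.04 to 0.12, and different numbers -0.07 to 0.05. With the replicate block the counts of markers were 5 in females and 7 in males (Cd163 lost, adjusted p = 0.0539) and those of genes were 962, 2136, 0, 12 and 863 in the order of the 5 comparisons. Depth limits what a 0 can show, and 20817 genes were at 0 in every library.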
